A study of Mus musculus with 4 samples.

Results

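The CD4 T cells of the mouse heart interstitium were 135 of the 38910 cell barcodes that passed a filter of at least 500 unique molecular identifiers (UMIs, each a counted RNA molecule), at least 250 detected genes and at most 15% mitochondrial UMIs. They were chosen by their own transcripts. A member had at least 2 UMIs of the CD3 genes Cd3e, Cd3d and Cd3g together and at least 1 UMI of Cd4. It had no UMI of Cd8a or Cd8b1, of the B cell gene Cd79a, or of Cdh5 and Pdgfra, which mark endothelial cells and fibroblasts. It had at most 2 UMIs of the macrophage complement genes C1qa, C1qb and C1qc. The cells set beside them were 233 CD8 T cells, which met the same limits but had at least 1 UMI of Cd8a or Cd8b1 and none of Cd4. Because the same cells' RNA chose and then described these classes, every value below is a description of these cells, and no p-value is given.

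The series took non-cardiomyocyte cells from mouse hearts, 2 samples from animals 1 month past a stroke and 2 from controls, and sequenced their RNA cell by cell with the 10x 3' v3.1 kit. All animals were labelled Ccr2creERT2-Ai14, a strain in which an inducible Cre driven by Ccr2 switches on the red reporter tdTomato. Age, sex, the stroke procedure and the induction of Cre are not given in the sources used here. Hearts were minced and digested, cardiomyocytes were held back by a 40 µm strainer, red cells were lysed, dead cells were depleted, and live nucleated cells were sorted. The 4 libraries stand in 1 joined matrix, in which a number on each barcode names the library but no label ties that number to a sample. They are therefore called libraries 1 to 4, stroke was not compared with control, and the whole matrix counts as 1 sample. Intervals are 95% exact intervals (Poisson for levels, Clopper-Pearson for shares, conditional binomial for ratios) and hold the error of counting molecules alone. They say nothing of the variation from animal to animal.

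CD4 T cells recognise peptides on MHC class II molecules through the T cell receptor, with the CD4 coreceptor binding the same MHC molecule. They act largely by helping other cells: CD40 ligand licenses B cells and dendritic cells, and secreted cytokines direct macrophages and stromal cells. CD8 T cells recognise MHC class I and kill through granzymes and perforin. Naive T cells of either lineage carry the homing receptor CCR7, while antigen-experienced cells lose it and gain adhesion molecules and effector chemokines. In injured hearts, CD4 T cells, regulatory T cells among them, are known to take part in healing.

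The libraries held 31955157 to 45834980 UMIs. Library 3 stood apart in sex-linked RNA, with 2 Xist and 3074 Ddx3y UMIs, against 19816 to 26910 Xist and 5 to 14 Ddx3y UMIs in the other libraries. Barcode sequences found in more than 1 library numbered 161, and 1 CD4 and 2 CD8 T cells carried one. CD4 T cells had a median of 4433 UMIs (range 1649 to 14605) and 1727 genes, CD8 T cells 5141 UMIs. The 12743 endothelial barcodes, used below to show the level that free RNA can give, had a median of 2631 UMIs.

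CD4 T cells made up 0.244% of passing barcodes in library 1 (24 of 9840, interval 0.156 to 0.363%), 0.740% in library 2 (73 of 9860, 0.581 to 0.93%), 0.170% in library 3 (15 of 8813, 0.0953 to 0.281%) and 0.221% in library 4 (23 of 10397, 0.140 to 0.332%). Library 2 lay above the intervals of the other libraries, which overlapped one another, and it supplied more members than the other libraries together. The share over all libraries was 0.347% (0.291 to 0.411%), and without library 2 it was 0.213%. Of the 734 T cells by the CD3 rule, 18.4% were CD4 T cells, 233 were CD8 T cells, 6 carried both coreceptors and 360 (49.0%) carried neither. A cell without a coreceptor UMI is not shown to lack the coreceptor at this depth, since 79 of the 135 members rested on a single Cd4 UMI and 33 on 2.

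**Figure D1:**
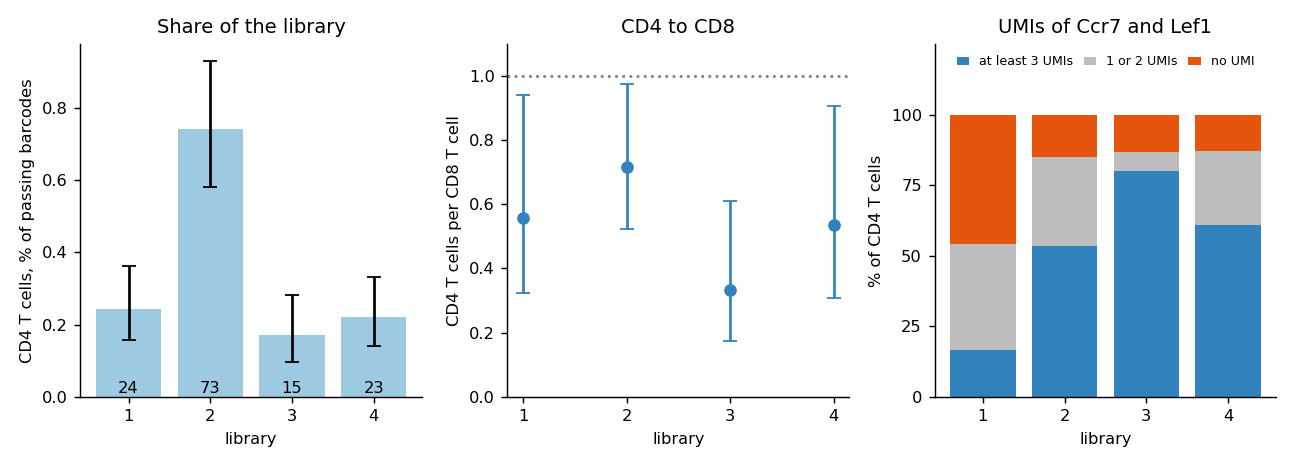
CD4 T cells by library. Left, their share of passing barcodes in percent with 95% exact intervals and cell numbers in the bars; middle, CD4 T cells per CD8 T cell with intervals; right, percent of CD4 T cells with at least 3, with 1 or 2, and with no UMIs of Ccr7 and Lef1. Library 2 has the highest share (0.740%), all 4 ratios lie below 1, and library 1 has 45.8% of its CD4 T cells without a UMI of either gene.

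CD8 T cells outnumbered CD4 T cells in every library. The number of CD4 T cells per CD8 T cell was 0.558 (24 to 43), 0.716 (73 to 102), 0.333 (15 to 45) and 0.535 (23 to 43) in libraries 1 to 4. All 4 intervals overlapped, and the ratio over all libraries was 0.579 (0.465 to 0.719). The balance depended on how the coreceptors were counted: with at least 2 UMIs required of Cd4, or of Cd8a and Cd8b1 together, the ratio was 0.295. The CD8 gate sums transcripts of 2 genes and the CD4 gate reads 1, so the ratio is that of cells detected, not of cells present.

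The rule drew its line through few cells at the CD3 end and many at the Cd4 end. The members' CD3 sum had a median of 7 UMIs and a maximum of 17; 7 members stood at the limit of 2, and 7 barcodes with 1 CD3 UMI and 13 with none met every other condition. A further 8 barcodes missed through Cd79a, 2 through the C1q genes, 21 through Cdh5 or Pdgfra and 6 through a CD8 UMI. Cd4 RNA was not confined to T cells in this tissue. Of the 238 passing barcodes with a Cd4 UMI, 54 had no CD3 UMI, and 28 of these (51.9%) carried C1q RNA, which macrophages make.

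T cell genes that the rule did not read were present in the members. All 135 members had a UMI of a T cell receptor constant region (Trac, Trbc1 or Trbc2), and 98 had one of Trac. Of 15 tested genes of the receptor and its proximal signalling (among them Lck, Zap70 and Lat), the summed level was 7219.8, 8011, 6228 and 7066 CPM (UMIs of the gene per 1e+06 UMIs of the class) in CD4 T cells of libraries 1 to 4, against 36.6 CPM in endothelial barcodes. V segments of the receptor were varied: 54 members (40%) had a UMI of at least 1 of 31 segments, and the most frequent, Trbv2, was seen in 6 cells. Segments seen in at least 3 members numbered 8.

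RNA of other cell types was present in places. The lists of 10 macrophage, 8 fibroblast, 8 endothelial and 8 B cell markers summed to 763, 646, 426 and 629 CPM. Pax5 and Cldn5 were at 0 among them, and 133 of the endothelial UMIs were of Pecam1, which naive T cells also carry. In CD8 T cells the macrophage, fibroblast, endothelial and B cell lists summed to 428, 873, 330 and 150 CPM. Marker lists of NK cells, gamma delta T cells and innate-like T cells summed to 60.3, 17.9 and 11.4 CPM in CD4 T cells. Each lay below its CD8 value (148, 54.3 and 65.02 CPM). Group 2 innate lymphoid markers were higher in CD4 T cells, at 1034 against 843 CPM. Their tested genes, Gata3, Il7r and Areg, also stand on T cell lists used below. Neutrophil, cardiomyocyte and erythroid lists summed to at most 24.5 CPM in CD4 T cells. Macrophage markers stood at 376, 155, 4658 and 190.4 CPM in libraries 1 to 4 and fibroblast markers at 2838, 256, 51.9 and 190.4 CPM, so that library 3 was high in the first and library 1 in the second. In libraries 1, 2 and 3, 1 member each carried at least 20 UMIs of the antigen-presentation and myeloid genes Cd74, H2-Aa, H2-Ab1, H2-Eb1, Lyz2 and Apoe; these 3 barcodes held 256 of the members' 265 Cd74 UMIs. Without them, macrophage markers in library 3 stood at 32.02 CPM and fibroblast markers in library 1 at 477 CPM. This exclusion was chosen after the values were seen, and MHC class II, Lyz2 and Apoe are not described as genes of CD4 T cells here. Among CD8 T cells, 3 barcodes met the same limit, and Lyz2 there was at 106 CPM with them and 28.3 CPM without. Comparisons of CD4 with CD8 T cells without the mixed barcodes leave out those of both classes.

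CD4 and CD8 T cells were compared gene by gene on summed UMIs (613367 and 1307306), as the ratio of CPM. Of 6622 genes with at least 30 UMIs over both classes, 219 (3.31%) were at least 2-fold higher in CD4 T cells and 225 (3.4%) at least 2-fold lower, 6.7% either way, and the median ratio was 1.05. In the 3 libraries with at least 20 cells of both classes (1, 2 and 4), 144 of the higher and 144 of the lower genes had that direction each time. Library 2 held 335415 of the 613367 CD4 UMIs, and many calls were not kept without it. Then 4397 genes were tested, and 66 of the 219 higher and 74 of the 225 lower genes were again past 2-fold. Another 2 called genes were past 2-fold in the opposite direction. A gene under 30 UMIs there was no longer tested, and how many calls were lost in that way was not counted. With edgeR's TMM scaling, which moved the median log2 ratio from 0.07 to -0.06, higher genes were 33.2% of those called, against 49.3% with total UMIs.

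**Figure D2:**
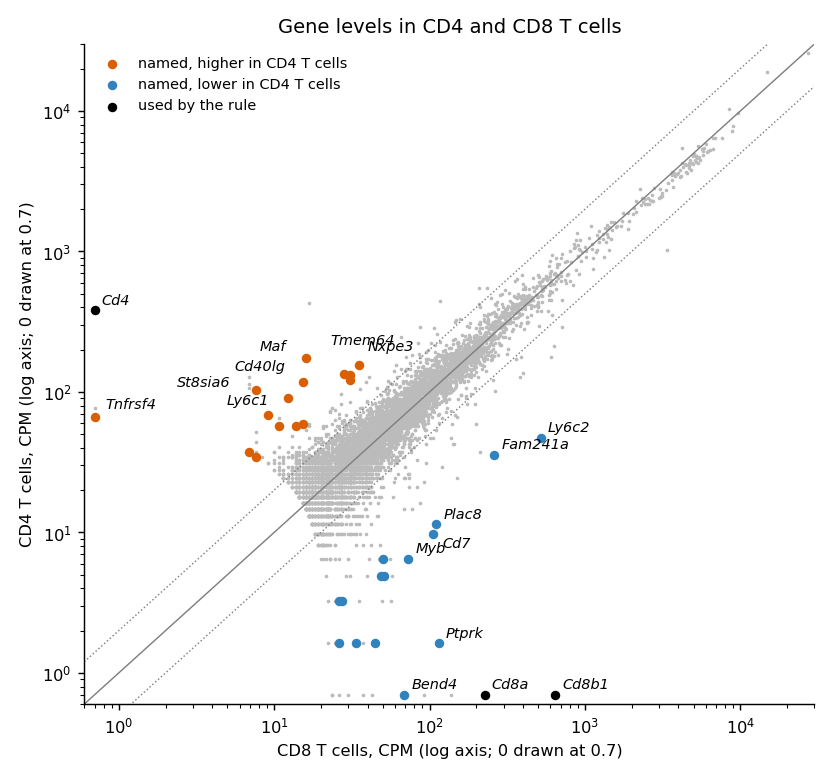
Level of each tested gene in CD8 T cells (x axis) and CD4 T cells (y axis), in CPM on log axes with 0 drawn at 0.7, each grey point 1 gene. The solid line marks equal levels and the dotted lines 2-fold; most of the 6622 genes lie between the dotted lines, the named higher genes above them, the named lower genes below, and Cd4, Cd8a and Cd8b1, which the rule sets to 0 in 1 class, at the edges, as are Tnfrsf4 and Bend4.

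Genes of T cell help were higher in CD4 T cells. Cd40lg, which encodes CD40 ligand, stood at 79.1, 128, 90.8 and 140.3 CPM in CD4 T cells of libraries 1 to 4 and at 19.5, 12.2, 3.95 and 35.8 CPM in CD8 T cells. The lowest CD4 library lay above the highest CD8 library, and the summed ratio was 7.67-fold (95% exact interval 4.62 to 13.3). A Cd40lg UMI was found in 33.3% of CD4 and 4.72% of CD8 T cells, and in 0.00785% of endothelial barcodes. Tnfrsf4, the costimulatory receptor OX40, had 41 UMIs in 22 CD4 T cells and none in 233 CD8 T cells. It was 29.1-fold higher against a floor of 3 UMIs over the CD8 class, a bound set by the floor and not the end of an exact interval. This bound was 17.2-fold without library 1 and 15.7-fold without library 2, each on fewer than 30 UMIs, and 7.45-fold after every cell was thinned to 1000 UMIs. Its level was 168, 62.6, 0 and 30.1 CPM by library, so library 3 had none in either class. Icos, an inducible costimulator, stood at 198, 221, 143 and 311 CPM against 58.5, 129, 115 and 46.01 CPM, above the CD8 range in each library, and was 2.16-fold (interval 1.69 to 2.77) higher. Of 11 tested costimulatory and helper genes, 3 were at least 2-fold higher (Cd40lg, Tnfrsf4 and Icos) and none lower, against 3.31% and 3.4% over all genes, and the list's median ratio was 1.51. Icos was short of 2-fold with TMM scaling and without library 4 (1.82-fold).

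The transcription factors that divide the lineages differed in part. Maf, a factor of helper and regulatory cells, stood at 326, 146, 169 and 120.3 CPM against 4.88, 16.8, 31.6 and 5.11 CPM, without overlap, and was 10.9-fold (interval 6.76 to 18.3) higher. Runx1 was at 593, 537, 545 and 561 CPM in CD4 T cells and 444, 208, 189.5 and 158 CPM in CD8 T cells, again without overlap (2.35-fold). Runx3, which represses Cd4 in the CD8 lineage, went the other way, with 29.7, 65.6, 64.9 and 60.1 CPM against 181, 113, 150.0 and 169 CPM, 2.37-fold (interval 1.65 to 3.49) higher in CD8 T cells. Gata3, a factor of CD4 commitment and type 2 help, summed to 70.1 against 26.01 CPM but was at 0 in library 3. Myb was 11.1-fold higher in CD8 T cells (6.52 against 72.7 CPM), in which 29 cells carried it. On 3 and 1 CD4 UMIs, its ratio was 3.26-fold without library 2 (interval 0.985 to 16.96) and 41.1-fold without library 4 (interval 7.19 to 1642). Of 11 tested lineage factors, 2 were higher (Gata3 and Runx1) and 2 lower (Runx3 and Myb), with a median ratio of 1.19. Over all genes 3.31% were higher and 3.4% lower. Maf was not on this list but on that of Th2 genes. Zbtb7b, the CD4 commitment factor ThPOK, had 12 UMIs in CD4 and 5 in CD8 T cells, too few to be tested.

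The other genes with the highest ratios were largely outside the textbook helper set. By a rule that took the 15 highest ratios of the same direction in libraries 1, 2 and 4, they were St8sia6, Itgb3, Ly6c1, Ube2e2, Pdlim4, Tmem64, Casp4, Nxpe3, Tspan32, Furin, Trat1 and Cyfip1, beside Tnfrsf4, Maf and Cd40lg. St8sia6, a sialyltransferase, stood at 59.3, 80.5, 195 and 150.3 CPM against 0, 3.06, 31.6 and 0 CPM (13.4-fold, interval 6.84 to 29.4). Without library 3 its ratio was 47.2 (interval 12.4 to 401) and rested on 2 CD8 UMIs. Nxpe3 was nearly even over the CD8 libraries, at 34.2, 35.2, 35.5 and 35.8 CPM, and at 168, 104, 247 and 241 CPM in CD4 T cells, every library above that range (4.402-fold, interval 3.06 to 6.403). Itgb3, the β3 integrin chain, was at 49.5, 62.6, 51.9 and 120.3 CPM against 4.88, 10.7, 7.897 and 10.2 CPM, also without overlap (7.46-fold). The ratios of the remaining 8 genes, Ly6c1 aside, ran from 3.84 for Cyfip1, part of the WAVE actin complex, to 5.45 for Ube2e2, a ubiquitin-conjugating enzyme. They include Furin, a protease that activates secreted precursors (4.14-fold), Trat1, an adaptor of the T cell receptor (3.996-fold), and Casp4, an inflammatory caspase (4.48-fold). Without library 2, Casp4, Furin and Cyfip1 stood at 7.84, 11.8 and 6.01-fold, on 3, 2 and 9 CD8 UMIs (intervals 2.02 to 44.3, 2.51 to 110.4 and 2.68 to 14.8). Among the 15 alternative settings, those that changed the limit of UMIs per gene leave every ratio as it was and test nothing here. The genes were also picked for high ratios in these same data, which makes 2-fold likely in the other settings. Of the 15 genes, 14 were at least 2-fold higher in all 15 alternative settings. The exception, Ube2e2, had 1 UMI in each class when every cell was thinned to 1000 UMIs, which gives no ratio.

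**Figure D3:**
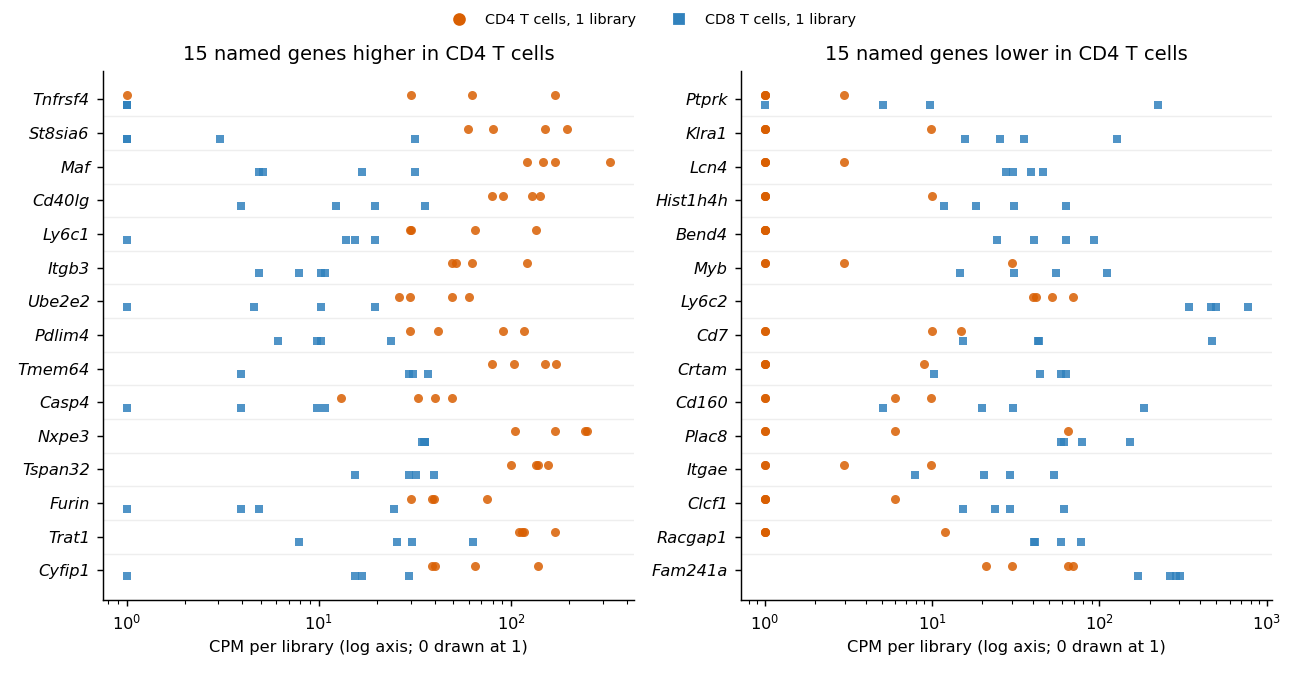
Levels of the 15 named genes higher (left) and the 15 lower (right) in CD4 T cells, in CPM on a log axis with 0 drawn at 1, each circle a library's CD4 T cells and each square its CD8 T cells. Cd40lg, Maf and Nxpe3 have every circle to the right of every square, and Ly6c2 and Fam241a every circle to the left.

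Killer and natural killer (NK) genes were lower in CD4 T cells: 13 of 17 tested were at least 2-fold lower and none higher, against 3.4% lower over all genes, with a median ratio of 0.301. The summed list stood at 2858, 1723, 1466 and 882 CPM in CD4 T cells and 12929, 2860.0, 7064 and 4627 CPM in CD8 T cells of libraries 1 to 4, so CD8 was higher within every library. The chemokine Ccl5 carried much of that sum, at 1988, 1091, 415 and 281 CPM against 6933, 1637, 4959 and 3553 CPM (3.32-fold, interval 3.06 to 3.62 higher in CD8 T cells), and was found in 27 CD4 and 101 CD8 T cells. Without library 2 it was 5.49-fold higher in CD8 T cells. Nkg7, a cytotoxic granule protein, was at 326, 185, 143 and 241 CPM against 1400.2, 399, 703 and 511 CPM, without overlap. Klrd1, the NK receptor chain CD94, was 5.61-fold higher in CD8 T cells, the factor Eomes 5.27-fold and the protease Gzmb 4.02-fold. Eomes had no CD4 UMI without library 2 (3.401-fold against the floor, on 24 CD8 UMIs), and Gzmb was 1.86-fold higher, short of 2-fold, without library 1. Gzma and Prf1 were within 2-fold (73.4 against 137 CPM and 29.3 against 39.8 CPM), and 45 Gzma UMIs came from 5 CD4 T cells. Without library 2 both were past 2-fold in CD8 T cells (3.699 and 3.08-fold), while Gzma without library 3 was 1.45-fold higher in CD4 T cells (interval 0.856 to 2.42). Without library 1, 7 of 12 tested genes of the list were lower and 2, Fcer1g and Tyrobp, higher. Both are also myeloid genes, and the members of library 3 include a mixed barcode. In CD4 T cells with at least 3 UMIs of Ccr7 and Lef1, Fcer1g had 24 and Tyrobp 25 UMIs. Without the 1 mixed barcode among those cells, 8 and 6 UMIs were left. The ratios without both library 1 and the mixed barcodes were not tested.

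Among the 15 lowest ratios, 8 were at least 2-fold lower in all 15 alternative settings, as a ratio or as a bound: Klra1, Bend4, Myb, Ly6c2, Cd7, Plac8, Racgap1 and Fam241a. Here too, the changed limits of UMIs per gene leave the ratios as they were, and the genes were picked for low ratios in these same data. Bend4 had no UMI in CD4 T cells and 90 in CD8 T cells. It was 14.1-fold lower against the floor of 3 UMIs over the CD4 class, and 4.11-fold against it without library 2. Fam241a stood at 69.2, 20.9, 64.9 and 30.1 CPM against 171, 265, 288 and 302 CPM, without overlap (7.25-fold, interval 4.71 to 11.7 higher in CD8 T cells, and 4.73-fold without library 2). Plac8 was 9.65-fold higher in CD8 T cells, and 3.74-fold without library 2. Cd7 was at 9.78 against 106 CPM, but CD8 T cells of library 1 alone held 468 CPM and the other libraries at most 43.4 CPM. Its ratio without library 1 was 3.25-fold (interval 1.38 to 9.36). Klra1 (1.63 against 44.4 CPM) belongs to the Ly49 receptors, whose near-identical copies make its count uncertain. After thinning to 1000 UMIs, Lcn4, Hist1h4h, Crtam, Cd160, Itgae, Clcf1 and Ptprk had no CD4 UMI and 7 to 9 CD8 UMIs. With a floor of 3 UMIs a 2-fold bound needs 11 there, so the thinned counts could not show a 2-fold difference for these genes. Without thinning, Lcn4 and Hist1h4h each had 1 CD4 UMI. Ptprk had 1 UMI in CD4 and 150 in CD8 T cells, a 70.4-fold ratio (interval 12.4 to 2798), yet 123 of the 150 came from 1 cell. Without library 2 Ptprk had no UMI in CD4 and 3 in CD8 T cells, which gives no ratio.

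A pair of neighbouring Ly6 genes split the lineages in opposite directions. Ly6c1 and Ly6c2 encode closely related GPI-anchored surface proteins, and lie 59327 bases apart on the minus strand of chromosome 15 (Ly6c1 15:75044018-75048830, Ly6c2 15:75108158-75111970, mm10). Ly6c1 stood at 29.7, 134, 64.9 and 30.1 CPM in CD4 and 19.5, 13.8, 0 and 15.3 CPM in CD8 T cells of libraries 1 to 4, and was 7.46-fold (interval 4.22 to 13.9) higher in CD4 T cells. Without library 2 the Ly6c1 ratio was 3.696-fold (interval 1.31 to 11.2), on 11 and 7 UMIs. Ly6c2 was at 69.2, 41.7, 51.9 and 40.1 CPM against 342, 494, 774 and 465 CPM, far apart in every library, and 11-fold (interval 7.59 to 16.6) higher in CD8 T cells. A Ly6c1 UMI was found in 25.9% of CD4 and 5.58% of CD8 T cells. Ly6c1 is also an endothelial gene in this tissue, at 1259 CPM in endothelial barcodes, where Ly6c2 was at 1.27 CPM, so the counting kept the copies apart there. Endothelial markers as a list summed to 426 CPM in CD4 and 329.7 CPM in CD8 T cells, and their part in the Ly6c1 value was not tested.

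The 250 bases before each start site show how far the copies differ where transcription begins, and are given from RefSeq on GRCm38.p6, minus strand, with capitals marking the runs of at least 12 bases that are identical in the aligned pair. Ly6c1 covers chr15:75048838-75049087 and Ly6c2 chr15:75111972-75112221.
Ly6c1: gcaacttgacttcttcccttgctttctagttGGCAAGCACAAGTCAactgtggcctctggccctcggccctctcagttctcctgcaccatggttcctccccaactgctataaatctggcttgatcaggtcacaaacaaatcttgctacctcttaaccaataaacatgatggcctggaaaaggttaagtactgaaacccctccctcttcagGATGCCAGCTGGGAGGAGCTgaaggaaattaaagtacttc
Ly6c2: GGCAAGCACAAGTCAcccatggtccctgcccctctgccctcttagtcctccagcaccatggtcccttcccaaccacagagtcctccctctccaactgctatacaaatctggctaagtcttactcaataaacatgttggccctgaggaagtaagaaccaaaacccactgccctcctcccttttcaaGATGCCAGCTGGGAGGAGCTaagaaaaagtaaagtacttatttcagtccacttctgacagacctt
Aligned over 284 positions, these upstream sequences were identical at 164 (57.7%), with a longest identical run of 20 bases. The last 300 bases of the 2 transcripts, where 3' reads fall, were 93.5% identical with a run of 124 bases, and the whole transcripts 95.02%. A read from the long identical stretches cannot be given to 1 copy, so both counts can be too low.

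Much of the T cell programme was shared. None of 12 tested naive and central memory genes differed by 2-fold (median ratio 1.06), with Il7r, the IL-7 receptor, at 846 against 813 CPM, Lef1 at 851 against 771 CPM and Tcf7 at 365 against 341 CPM. The same held for 15 receptor signalling genes (median 1.26), 8 GIMAP GTPases of lymphocyte survival (median 1.04), 15 early response genes (median 1.36) and 12 interferon response genes (median 1.32). Over 6622 genes, 6.7% were past 2-fold and the median ratio was 1.05. Chemokine receptor and trafficking genes had 1 of 15 higher (Ccr2) and 1 lower (Itgae), and effector memory genes 1 of 18 higher (Itgb1, 1078, 462, 285 and 491 against 409.8, 138, 217 and 219.8 CPM) and 2 lower (Ccl5 and Itgae). Inhibitory receptors had Ctla4 and Pdcd1 higher and Cd160 lower of 8. Pdcd1 had 15 UMIs in each class, and its ratio was 0.941 without library 2. Of 6 tested cell cycle genes, Mki67 and Top2a were lower in CD4 T cells, while none of the 4 tested without library 1 was. Of 12 cytokine receptor genes of the common gamma chain family, 3 were higher (Il2ra, Stat5b and the feedback inhibitor Cish) and none lower. None of the 11 tested without library 1 was higher, with Stat5b at 1.92 and Cish at 1.79, and Il2ra had fewer than 30 UMIs there and without the mixed barcodes. Stat5b stood at 346, 301, 311 and 441 CPM against 82.9, 168, 158 and 199 CPM, without overlap (2.11-fold, and short of 2-fold with TMM scaling).

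Genes of helper subsets were sparse. Of 8 Th1 genes, all tested, 1 was lower in CD4 T cells (Il12rb2, 19.6 against 39.8 CPM) and none higher. Over all genes 3.4% were lower and 3.31% higher. Il12rb2, a chain of the IL-12 receptor, was not past 2-fold without library 1. Tbx21, the Th1 master factor, was at 39.6, 26.8, 25.95 and 20.05 CPM against 87.8, 22.95, 19.7 and 30.7 CPM, within 2-fold, and Cxcr3 at 50.5 against 37.5 CPM. The type 2 cytokines Il4, Il5 and Il13 and the Th17 and follicular cytokines Il17a, Il17f, Il22 and Il21 had no UMI in the 135 cells; the exact interval for 0 counts reaches 6.01 CPM. The only tested Th2 genes were Gata3 and Maf, and the only tested Th17 gene was Rora, 2.53-fold higher at 287, 134, 77.9 and 291 CPM against 73.2, 68.9, 67.1 and 76.7 CPM without overlap. Cxcr5, the follicular homing receptor, had 1 UMI in CD4 and 11 in CD8 T cells. Ifng, encoding interferon-γ, stood at 336, 38.8, 0 and 10.02 CPM in CD4 T cells, mostly in library 1, against 146, 13.8, 51.3 and 46.01 CPM.

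Foxp3, the defining factor of regulatory T cells, was seldom detected among CD4 T cells. Foxp3 had a UMI in 3 of 135 CD4 T cells (2.22%, interval 0.461 to 6.36%), in 0.429% of CD8 T cells, in 8 of 360 T cells with neither coreceptor and in 0.00785% of endothelial barcodes. After thinning to 1000 UMIs the CD4 share was 1.48%. A cell without a Foxp3 UMI is not shown to lack Foxp3 at this depth. The 2.22% is therefore a share of cells detected, not of regulatory T cells present. The 3 cells came from libraries 1 and 2. The first held 4 Foxp3, 12 Ctla4, 27 Ikzf2 and 13 Il1rl1 UMIs; the second held 1 Foxp3, 5 Il2ra, 11 Ctla4 and 13 Ikzf2 UMIs; the third held 2 Foxp3 and 4 Ikzf2 UMIs. Ikzf2 encodes Helios, Il1rl1 the IL-33 receptor and Il2ra the high-affinity IL-2 receptor chain, all known from regulatory cells. With 3 cells, no gene comparison by Foxp3 was made.

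Of 10 tested regulatory genes, 6 were higher in CD4 than CD8 T cells (Il2ra, Ctla4, Tnfrsf4, Izumo1r, Nrp1 and Areg) and none lower, against 3.31% and 3.4% over all genes, with a median ratio of 2.67. Ctla4, the inhibitory receptor, was at 198, 185, 12.98 and 130.3 CPM against 24.4, 84.2, 63.2 and 20.5 CPM, and only library 3 was not higher in CD4 T cells. Nrp1, a semaphorin coreceptor, stood at 129, 68.6, 77.9 and 50.1 CPM against 29.3, 26.01, 15.8 and 20.5 CPM without overlap (3.23-fold, interval 2.01 to 5.26). It is also an endothelial gene, at 1526 CPM in endothelial barcodes. Areg, encoding the repair factor amphiregulin, rested on 5 cells, of which 1, in library 2, held 39 of 47 UMIs. Of the 22 cells with Tnfrsf4, 1 had a Foxp3 UMI. Without library 2, only 6 genes of the list were tested and 2, Ctla4 and Nrp1, were higher.

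CD4 T cells differed among themselves along the naive-memory axis. They were split, after the values were seen, by the summed UMIs of Ccr7 and Lef1, which mark naive and central memory cells: 69 cells (51.1%) had at least 3 UMIs, 39 (28.9%) had 1 or 2, and 27 (20%) had none. The line is a cut through a range, with 22 cells at 1 UMI, 17 at 2, 11 at 3 and 7 at 4. Median depth was 4787 UMIs in cells with at least 3 and 4173 in cells with none. Markers of other cell types also differed between the sides. In cells with at least 3 and with none, fibroblast markers summed to 193 and 349.9 CPM, with Dcn 3.33-fold (interval 1.17 to 9.46) and Gsn 1.96-fold (interval 1.07 to 3.497) higher in cells with none. Endothelial markers stood at 494 against 204 CPM, B cell markers at 421 against 156 CPM and macrophage markers at 1122 against 175 CPM. Without the mixed barcodes the B cell values were 171 and 156 CPM and the macrophage values 82.4 and 175 CPM. Median UMIs per cell were 1 on both sides for fibroblasts, 2 against 0 for endothelium, 1 against 0 for B cells and 0 on both sides for macrophages and NK cells. The part of this RNA in the split's values was not tested. Cells with none were 11 of 24 (45.8%) in library 1, 11 of 73 (15.1%) in library 2, 2 of 15 (13.3%) in library 3 and 3 of 23 (13.04%) in library 4.

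Of 15 effector memory genes with at least 30 UMIs over both sides, 14 were at least 2-fold higher in cells with no UMI of either marker and none lower, and the list's median ratio was 5.26. Over all 2374 genes compared on this split, 11.5% were at least 2-fold higher in cells with none and 9.48% in cells with at least 3, with a median ratio of 1.07. The fifteenth gene, Cd69, an activation and residence marker, had a ratio of 1.43 (interval 0.828 to 2.41). Of 5 compared killer genes 4 were higher (Gzma, Nkg7, Ccl5 and Ctsw), while Fcer1g was at 1.11. Prf1 and Klrd1 had too few UMIs to be compared. The lists and the split were chosen with these values known. The calcium-binding gene S100a4 stood at 2216 against 132 CPM in cells with none and with at least 3, 16.8-fold (interval 12.2 to 23.7) higher. The integrin chain Itgb1 was 11.2-fold (interval 8.15 to 15.7) higher (1643 against 146 CPM), Maf 8.58-fold (interval 4.96 to 15.4) and Id2, an inhibitor of E proteins, 6.95-fold (interval 4.53 to 10.9). Ccl5 had 410 UMIs in the 27 cells with none and 3 UMIs in the 69 cells with at least 3. Cxcr3, a receptor for inflammatory chemokines, had 19 UMIs against none, Ifng 32 against none and Gzma 45 against none. Tnfrsf4 was 21.6-fold and Nkg7 27.3-fold higher in cells with none. Without library 1, which held 11 of the 27 cells, 14 of 15 effector memory genes were again higher in cells with none, and without library 2, which held another 11, 13 of 15. Without library 1, S100a4 was 12.8-fold, Itgb1 10.9-fold and Maf 8.45-fold higher, while Ifng had 5 UMIs against none. Maf was 14.2-fold higher without the mixed barcodes. Single libraries moved the sparse genes more: Nkg7 was 17.9-fold higher without library 2, and 174-fold (interval 30.1 to 7005) without library 4, on 1 UMI in cells with at least 3. Tnfrsf4 was 40.5-fold higher (interval 6.23 to 1706) without library 2, also on 1 UMI there.

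Of 10 further naive and central memory genes compared, 8 were at least 2-fold higher in cells with at least 3 marker UMIs and none in cells with none, with a median ratio of none over at least 3 of 0.271. The other genes were Klf2, a factor of T cell quiescence and trafficking (1.52-fold, interval 1.12 to 2.08 higher with at least 3), and the costimulatory receptor gene Cd27 (1.15, interval 0.581 to 2.47). Satb1, a chromatin organiser of T cells, had 424 UMIs in cells with at least 3 and 8 in cells with none, 15.9-fold by CPM. Il7r was 3.59-fold (interval 2.45 to 5.44) higher, Bach2, a repressor of effector genes, 4.82-fold (interval 3.24 to 7.47), Foxp1, a factor of quiescence, 3.96-fold (interval 2.88 to 5.58), and S1pr1, the receptor for exit into lymph and blood, 3.18-fold (interval 1.76 to 6.32). Without library 2 the ratios were larger: 11.2 for Il7r, 15.8 for Bach2 and 5.46 for S1pr1. That of Satb1 was 9.51 without library 1 and 30.5 (interval 8.32 to 254) without library 2, on 2 UMIs in cells with none. St8sia6 had 50 UMIs in cells with at least 3 and none in cells with none. Cd40lg (1.005), Cd28 (1.18), Runx1 (1.22) and Nxpe3 (0.86) had ratios of none over at least 3 near 1 and intervals that span 1.

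**Figure D4:**
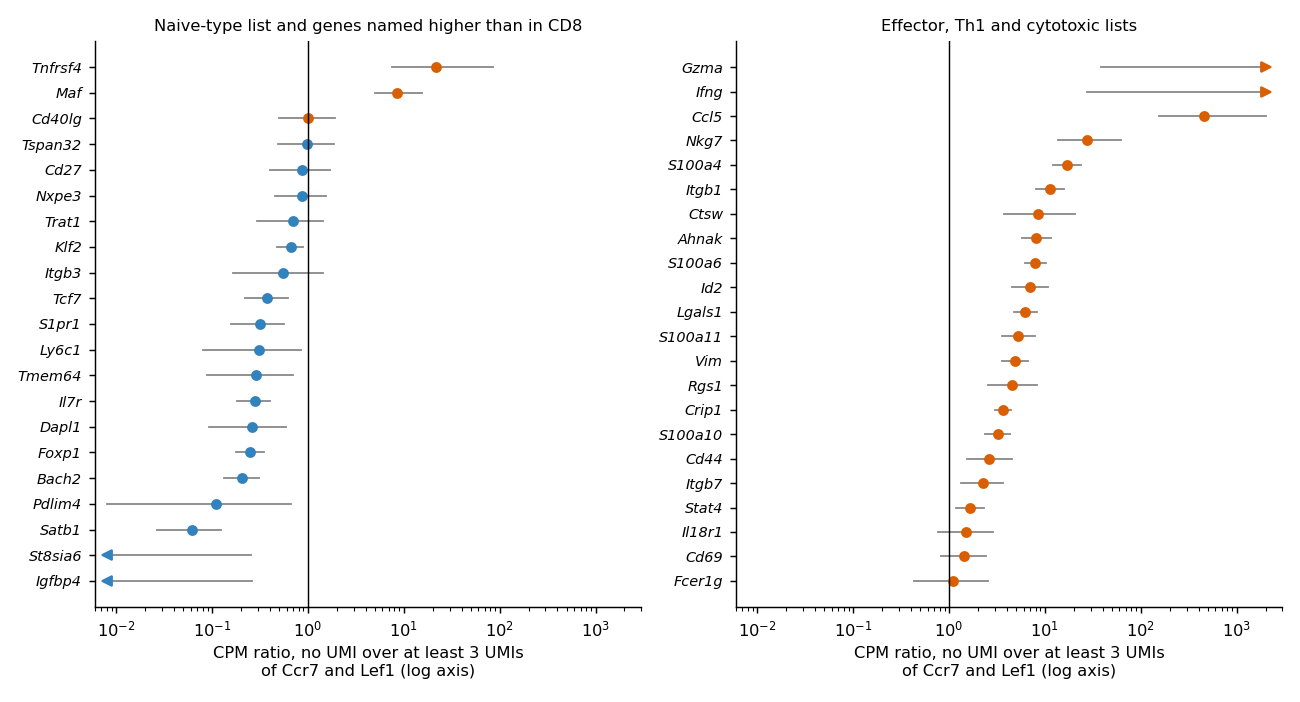
Ratio of CPM in CD4 T cells with no UMI of Ccr7 and Lef1 over those with at least 3, on a log axis, with 95% exact intervals, for naive-type and named genes (left) and effector, Th1 and cytotoxic genes (right), each with at least 30 UMIs over both sides; arrows mark genes with no UMI on one side. Ccl5, Nkg7 and S100a4 lie far above 1, Satb1 and St8sia6 far below, and Cd40lg and Nxpe3 near 1.

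The same split was made in CD8 T cells, and the difference between the lineages changed across it in both directions. CD8 T cells with none were 20.6% of their class, against 20% of CD4 T cells. Cells with at least 3 marker UMIs were 63.5% of CD8 and 51.1% of CD4 T cells. By library, the shares with none were 58.1, 8.82, 17.8 and 13.95% in CD8 and 45.8, 15.1, 13.3 and 13.04% in CD4 T cells. Library 1 held 25 of the 48 CD8 T cells with none and 11 of the 27 CD4 T cells. The ratios below pool the libraries. Among cells with at least 3 marker UMIs, Ccl5 stood at 8.77 CPM in CD4 and 1064 CPM in CD8 T cells, a 121-fold difference (interval 41.4 to 589) that rests on 3 CD4 UMIs. Among cells with none the difference was 3.09-fold (interval 2.78 to 3.44). Ly6c2 was 80.02-fold higher (interval 22.01 to 663) in CD8 T cells with at least 3, on 2 CD4 UMIs. In those with none it was 3.82-fold higher (interval 2.39 to 6.42). Nkg7 went from 12.4-fold, on 9 CD4 UMIs, to 2.62-fold. Some other killer genes differed more in cells with none. Klrk1 went from 1.99-fold to 34.8-fold higher in CD8 T cells, on 5 and 2 CD4 UMIs. Xcl1 went from 0.891 to 5.71-fold, on 3 and 9 CD4 UMIs. Icos and Itgb1 were 1.60 and 1.42-fold higher in CD4 T cells with at least 3, and 3.67 and 2.51-fold in those with none. How many genes went each way was not counted. Cd40lg was 56.3-fold higher in CD4 T cells with at least 3 (126 against 2.23 CPM, interval 14.7 to 479.7, on 2 CD8 UMIs) and 1.803-fold (interval 0.7897 to 4.06) in those with none. Nxpe3 had like CD4 to CD8 ratios on both sides (4.602 and 4.46). Maf stood at 8.29 and 8.497, but the first rests on 19 UMIs in 4 CD4 T cells and on 6 CD8 UMIs. Without the mixed barcodes, 11 Maf UMIs were left in CD4 T cells with at least 3. S100a4 was 3.101-fold higher in CD4 T cells with at least 3 and 0.887-fold in those with none. The S100a4 value with at least 3 rests on 45 UMIs in 5 CD4 T cells, against 38 CD8 UMIs. Without the mixed barcodes, 33 of its CD4 UMIs were left there.

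Library 1 stood apart among CD4 T cells in the same genes. S100a4 was at 1474, 549, 337 and 551 CPM in libraries 1 to 4, Itgb1 at 1078, 462, 285 and 491 CPM, and Lef1 at 455, 963, 1012 and 752 CPM. Foxp1 stood at 495, 1240.2, 1674 and 1243 CPM, lowest in library 1. The naive list summed to 3966, 6735, 7954 and 7056 CPM in CD4 T cells and 3752, 6732, 7194 and 6503 CPM in CD8 T cells, lowest in library 1 in both. The effector memory list summed to 14845, 5933, 4801 and 6074 CPM in CD4 T cells and 18407, 5342, 9457 and 7505 CPM in CD8 T cells, highest in library 1 in both. In CD8 T cells of library 1, 58.1% had no UMI of either marker, against 8.82 to 17.8% in the other libraries. Median depth of CD4 T cells was also lowest in library 1, at 3774.5 UMIs, against 4310 to 5077 in the other libraries. That of CD8 T cells was 4602 UMIs in library 1 and 4417 in library 4. The part of depth in these shares was not tested. Whether library 1 is a stroke or a control sample is not given, and differences between animals and conditions cannot be told apart here.

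**Figure D5:**
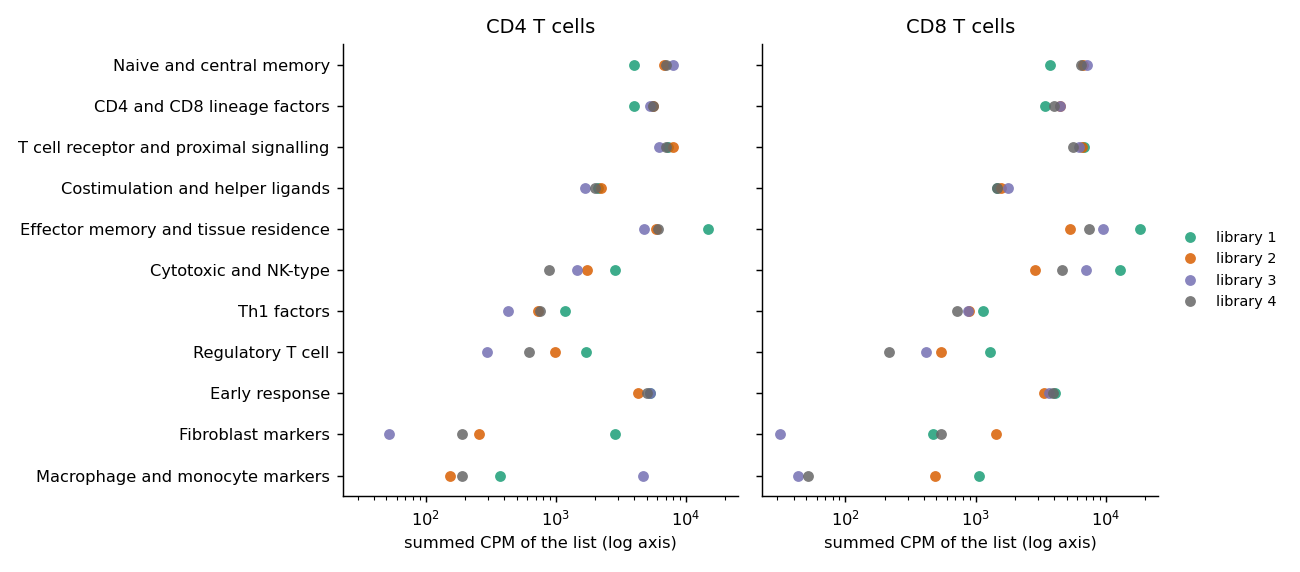
Summed CPM of gene lists on a log axis in CD4 T cells (left) and CD8 T cells (right), each point 1 library. Library 1 is lowest in the naive list and highest in the effector list in both classes, and the macrophage point of library 3 in CD4 T cells (4658 CPM) holds the UMIs of a mixed barcode.

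The reporter of Ccr2 history was found in part of the CD4 T cells. A tdTomato UMI was present in 20.7% of them (28 cells, interval 14.2 to 28.6%), in 12.4% of CD8 T cells and in 34.2% of T cells with neither coreceptor. Endothelial barcodes had one in 5.76%, and after thinning to 1000 UMIs the shares were 5.19% in CD4, 2.16% in CD8 T cells and 1.77% in endothelial barcodes. The reporter's level in CD4 T cells was 98.9, 83.5, 51.9 and 40.1 CPM in libraries 1 to 4, and in CD8 T cells 9.76, 59.7, 19.7 and 46.0 CPM, so library 4 was not higher in CD4. The chemokine receptor gene Ccr2 itself was seen in 6.67% of CD4 T cells, at 39.6, 26.8, 77.9 and 30.1 CPM against 19.5, 13.8, 7.897 and 15.3 CPM, and in 0.110% of endothelial barcodes. It was 2.605-fold (interval 1.33 to 5.15) higher in CD4 T cells, but below 2-fold without the mixed barcodes or library 3, and under 30 UMIs without library 2.

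Within CD4 T cells the reporter followed the naive-memory split. Of the cells with no UMI of Ccr7 and Lef1, 44.4% had a tdTomato UMI, against 8.696% of cells with at least 3, and the level was 8.73-fold (interval 3.71 to 22.8) higher. By library these were 5 of 11, 5 of 11, 1 of 2 and 1 of 3 cells with none, against 0 of 4, 2 of 39, 3 of 12 and 1 of 14 cells with at least 3. The share was higher on the side with none in each library, though libraries 3 and 4 held 5 such cells. The reporter's level was 204 against 23.4 CPM, on 21 and 8 UMIs, and 20.6 CPM in endothelial barcodes. Together these 21 and 8 UMIs fall short of the 30 asked of compared genes. Without library 1 the level was 8.41-fold higher. After thinning, the shares were 11.1% and 2.899%, on 27 and 69 cells, or 3 and 2 cells, a difference too small in number to be detectable at that depth. CD8 T cells had a tdTomato UMI in 14.6% and 10.8% on the respective sides, at 93.4 against 26.8 CPM (3.49-fold, interval 1.83 to 6.59). Library 2 gave 16 of the 20 UMIs of the CD8 side with none, and without it the CD8 ratio was 1.09 (interval 0.246 to 3.92), against 6.75 (interval 1.95 to 29.5) in CD4 T cells. Without library 1 it was 7.19 in CD8 T cells, and the difference between the lineages was not tested. Of the 28 CD4 T cells with the reporter, 13 carried Maf, 12 Ccl5 and 5 Ccr2. Among all 135 CD4 T cells, 35 carried Maf, 27 Ccl5 and 9 Ccr2. Whether the reporter met these genes more often than the cells' depth alone would give was not tested.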

How the data were processed

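RNA was measured in 4 samples of mouse heart cells. Per the submitters' processing notes and the file headers, the authors ran Cell Ranger 7.1.0 on mm10 and deposited 1 joined matrix of UMI counts, with 32286 features, 39731 barcodes and 159014153 UMIs. No other aligner setting is given in the sources used here. The CD4 T cells and the 30 gene lists (278 genes) were chosen with earlier results of these data known.

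From the counts, barcodes were filtered (821 failed), classes were taken by the rule given in the report, UMIs were summed per class and library, and ratios of CPM were formed for genes with at least 30 UMIs over CD4 and CD8 T cells. A gene was called at 2-fold, and a sum of 0 was set to a floor of 3 UMIs for bounds. Such a bound depends on the floor and can lie above the lower end of the exact interval. Doublets stayed in; Scrublet, run in scanpy 1.11.5, marked 1316 barcodes, 1 CD4 and 5 CD8 T cells among them. Its automatic threshold marked none in library 3, so there the median of the other 3 thresholds, 0.208, was used, chosen after seeing the data. With the matrix as 1 sample, no replicate error, SD or p-value was computed, and the precision is that of counting.

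Named genes were the 15 highest and the 15 lowest ratios with the same direction in every library holding at least 20 cells of both classes, without genes of the rule and without mitochondrial, ribosomal, immunoglobulin, T cell receptor segment, sex-linked and provisional (Gm, Rik) genes, plus members of the gene lists. A planned comparison of CD4 T cells with and without Foxp3 was not made, since 3 cells had it. The split by Ccr7 and Lef1 and the leaving out of mixed barcodes were chosen after the values were seen. Some genes of the lists are not reported here, and the lists are counted without them. Alternatives were stricter cell, gene and gate filters, removal of doublets, thinning to 1000 UMIs, equal weight per cell, edgeR 4.0.16 TMM scaling (R 4.3.3) and each library left out. The scripts (python 3.11.15, numpy 2.4.6, scipy 1.17.1, pandas 2.3.3) were tested on simulated counts.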

Additional observations from a re-analysis of the deposited data

Results flagged for a closer look

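Of 35 quantities compared over the 4 libraries of CD4 T cells, 5 had 1 library whose gap to its nearest neighbour was, as a share of the whole range, above Dixon's 95% critical value. Chance gives this for about 1 quantity in 20. The libraries could not be tied to the stroke or control samples.

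The share of CD4 T cells among passing barcodes was highest in library 2, at 0.740%, against 0.170 to 0.244% in the other libraries. The share of CD4 T cells with no UMI of Ccr7 and Lef1 was highest in library 1, at 45.8%, against 13.04 to 15.1%. The summed level of effector memory genes was also highest in library 1, at 14845 CPM, against 4801 to 6074 CPM. Without the mixed barcodes it was 14509 CPM.

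Macrophage markers in CD4 T cells were highest in library 3, at 4658 CPM, and fibroblast markers in library 1, at 2838 CPM. Without the 3 mixed barcodes these stood at 32 and 477 CPM.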

How the results depend on the processing

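Depth and cell number limit these values: 24, 73, 15 and 23 CD4 T cells stood in libraries 1 to 4, and a gene at 30 UMIs over both classes has a wide counting interval. No paired analysis was possible because the joined matrix does not tie its libraries to the samples, so no test between groups was made.

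The share of CD4 T cells was 0.144% when 2 Cd4 UMIs were required, and 0.213% (without library 2) to 0.399% when 1 library was left out. The number per CD8 T cell was 0.295 with 2 coreceptor UMIs, and 0.473 to 0.638 without 1 library. The share with Foxp3 was 1.61 to 2.68% without 1 library and 1.48% after thinning. Other filters moved these values by less than their intervals.

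Genes at least 2-fold higher numbered 64 and lower 62 after thinning to 1000 UMIs per cell, where 1899 genes were tested. Of these, only 19 were among the 219 higher and 29 among the 225 lower genes of the main comparison. With 2 coreceptor UMIs required, 309 genes were higher and 253 lower, of 5558 tested. Of those, 104 and 117 were among the 219 and the 225. The genes called numbered 675 and 657 with a limit of 10 UMIs per gene, and 44 and 51 with a limit of 100. With TMM scaling they numbered 144 and 290, and the median log2 ratio of all genes moved by -0.13. Without 1 library they were 175 to 204 and 167 to 229. Without the mixed barcodes, an alternative chosen after seeing the data, they were 176 (155 of them among the 219) and 231.

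For the 30 named genes, 448 ratios were formed under 15 alternatives, 46 of them bounds with 1 class at 0. Of the 448, 378 stayed within 1.5 times the value reported, 70 moved by more and none changed direction. Part of the 378 was fixed in advance and is no evidence of stability. The changed limits of UMIs per gene leave every ratio as it was. TMM scaling multiplies all ratios by the same factor, which lies within 1.5 times. The stricter cell filter kept 135 CD4 and 231 CD8 T cells, and so barely tested the ratios. In 2 cases no ratio was formed, since both classes were at or under 3 UMIs: Ube2e2 after thinning and Ptprk without library 2, where CD4 T cells had 0 and CD8 T cells 3 Ptprk UMIs. In library 2, 1 CD8 T cell held 123 Ptprk UMIs.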
